A study of Mus musculus with 18 samples.

Results

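The genes described here make the coenzyme NAD or consume it. They are 10 named genes of the left ventricle, taken by symbol from a count table of 55450 genes whose Ensembl identifiers were matched to GENCODE M21 names. All 10 were among the 16270 genes with enough reads to test. They are Nampt, Nmrk1, Nmrk2, Nmnat1 and Nmnat3, which build NAD, and Sirt1, Sirt3, Sirt5, Cd38 and Parp1, which use it. The rule that lists them uses no measured value, but the list was chosen with earlier results of these data known. Left ventricular RNA was sequenced from male FVB/N mice of 2 genotypes: mice overexpressing Gαq (Gnaq, the α subunit of the Gq protein) in the heart, here called Gαq, and wild-type littermates (WT). Both ate control chow (CD) or the same chow with the sodium-glucose linked transporter 2 inhibitor ertugliflozin (ERTU) at 0.5 mg/g, started at 4 weeks of age and given for 16 weeks, so that hearts were taken at 20 weeks. The series holds 4 libraries of WT on CD, 5 of WT on ERTU, 5 of Gαq on CD and 4 of Gαq on ERTU. The sources used here do not name the promoter that drives the transgene, and whole powdered ventricles were extracted, so every value is a mean over all cells of the ventricle. In such bulk RNA, fewer cells of a type and less RNA per cell cannot be told apart.

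NAD carries electrons from fuel oxidation to the respiratory chain, and a heart cell renews most of it by salvage. NAMPT turns nicotinamide into nicotinamide mononucleotide, the NMRK kinases make the same mononucleotide from nicotinamide riboside, and the NMNAT enzymes join it to ATP to give NAD. Sirtuins, poly(ADP-ribose) polymerases and CD38 split NAD and release nicotinamide, which NAMPT takes up again.

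Promoters of 4 genes are shown because their genes carry the results that follow: Nmrk2, the one member that rose in Gαq hearts, Nampt and Nmnat3, which fell, and Parp1, which fell by genotype and holds an E-box. Each sequence runs 5′ to 3′ from 250 bases before the RefSeq transcript start to 50 bases after it, on build GRCm38.p6, and capitals mark the E-box CACGTG, the letters that the clock proteins CLOCK and BMAL1 bind.
Nmrk2, chr10:81201988-81202287, minus strand: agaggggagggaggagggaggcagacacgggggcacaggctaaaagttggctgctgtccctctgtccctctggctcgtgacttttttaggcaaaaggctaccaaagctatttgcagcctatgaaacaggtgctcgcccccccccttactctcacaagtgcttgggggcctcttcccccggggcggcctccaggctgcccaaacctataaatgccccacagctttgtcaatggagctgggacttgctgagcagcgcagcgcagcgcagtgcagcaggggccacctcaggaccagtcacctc
Nampt, chr12:32820085-32820384, plus strand: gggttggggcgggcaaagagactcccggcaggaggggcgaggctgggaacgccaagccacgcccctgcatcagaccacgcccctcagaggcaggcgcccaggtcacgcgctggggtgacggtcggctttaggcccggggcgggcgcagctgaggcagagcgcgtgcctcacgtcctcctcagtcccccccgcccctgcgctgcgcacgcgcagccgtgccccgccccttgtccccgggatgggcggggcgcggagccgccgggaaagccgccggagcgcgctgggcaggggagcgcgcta
Nmnat3, chr9:98296320-98296619, plus strand: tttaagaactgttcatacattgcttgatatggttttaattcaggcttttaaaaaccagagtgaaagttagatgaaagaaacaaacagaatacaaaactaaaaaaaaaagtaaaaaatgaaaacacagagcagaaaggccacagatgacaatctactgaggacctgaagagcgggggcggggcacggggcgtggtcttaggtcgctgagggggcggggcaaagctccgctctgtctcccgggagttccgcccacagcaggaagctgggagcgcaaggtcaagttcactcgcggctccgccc
Parp1, chr1:180568641-180568940, plus strand: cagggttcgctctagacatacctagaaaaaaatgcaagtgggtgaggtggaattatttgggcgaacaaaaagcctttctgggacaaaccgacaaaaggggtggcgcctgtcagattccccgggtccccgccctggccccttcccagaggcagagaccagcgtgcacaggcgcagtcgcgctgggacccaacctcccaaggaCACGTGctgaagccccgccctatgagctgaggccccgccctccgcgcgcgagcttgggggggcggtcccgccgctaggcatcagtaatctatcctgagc
The windows differ in base composition, with 76.3% G and C in Nampt, 60.7% in Nmrk2, 62.0% in Parp1 and 49.0% in Nmnat3. A set of 4 motifs was searched on both strands in the promoters of all 10 members: the E-box CACGTG, the oestrogen-related receptor element TNAAGGTCA, the CArG box of serum response factor and the palindromic NRF1 element. The E-box was found in Parp1, starting 49 bases before the transcript start, and in Sirt1 on chromosome 10, starting 115 and 43 bases before it. It is present in 7.15% of the 32851 mouse promoters of this length. The other 3 motifs, held by 1.28%, 1.63% and 0.971% of promoters in the order named, did not occur as searched in any member's window. The Nampt window holds GCGCACGCGC, which differs from the searched NRF1 letters by a single base, and such variants were not searched. These matches describe letters only.

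The transgene separated the genotypes as labelled. Gnaq was 45.5 to 230 CPM in the 9 WT libraries and 1641 to 11670 CPM in the 9 Gαq libraries. CPM is a gene's reads per 1000000 reads of its library after trimmed-mean scaling, and libraries held 15383566 to 20908363 reads in genes. The 8 cardiomyocyte markers summed to 69507 to 100316 CPM in WT and 66296 to 88135 CPM in Gαq libraries, and 4 of the 8 fell by genotype, with a median log2 difference of -0.19. The 5 endothelial markers summed to 1097 to 1431 CPM in WT and 956 to 1177 CPM in Gαq libraries, and 2 of the 5 fell, with a median of -0.24. The 6 fibroblast markers summed to 1422 to 2886 CPM in WT and 2713 to 4017 CPM in Gαq libraries, and all 6 rose, with a median of 0.67. The part of these shifts in the members' differences was not tested. WT CD library 4 and WT ERTU library 15 stood apart from their groups, with 166 CPM of Pdk4 (pyruvate dehydrogenase kinase 4) in the former against 3500 to 3976 CPM in the other WT CD libraries, and with the lowest value of the clock gene Arntl (Bmal1) of all libraries, 1.68 CPM, in the latter. They are also the 2 WT libraries with the most Nmrk2. Without both, a choice made after seeing the data, the 6 members that passed by genotype passed again, and calls that changed are given beside each result.

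Of the 10 members, 6 passed the test by genotype, edgeR's quasi-likelihood test with diet in the model and Benjamini-Hochberg adjustment over all tested genes at 0.05. Nmrk2 rose, and Nampt, Nmnat1, Nmnat3, Sirt3 and Parp1 fell. Among all tested genes 19.6% passed, 9.72% higher and 9.92% lower. The median log2 difference was -0.25 over the members and 0.0038 over all tested genes. On control diet 5 members passed, against 8.1% of all genes, and under ERTU 2 members passed, against 8.17%. For 3 members, Nampt, Nmnat1 and Nmnat3, every Gαq library lay below every WT library, a pattern that 1.83% of tested genes showed in this direction. Within diets the same held for 3 members on control diet, against 4.6% of genes, and for these and Sirt3 under ERTU, against 5.49%.

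**Figure D1:**
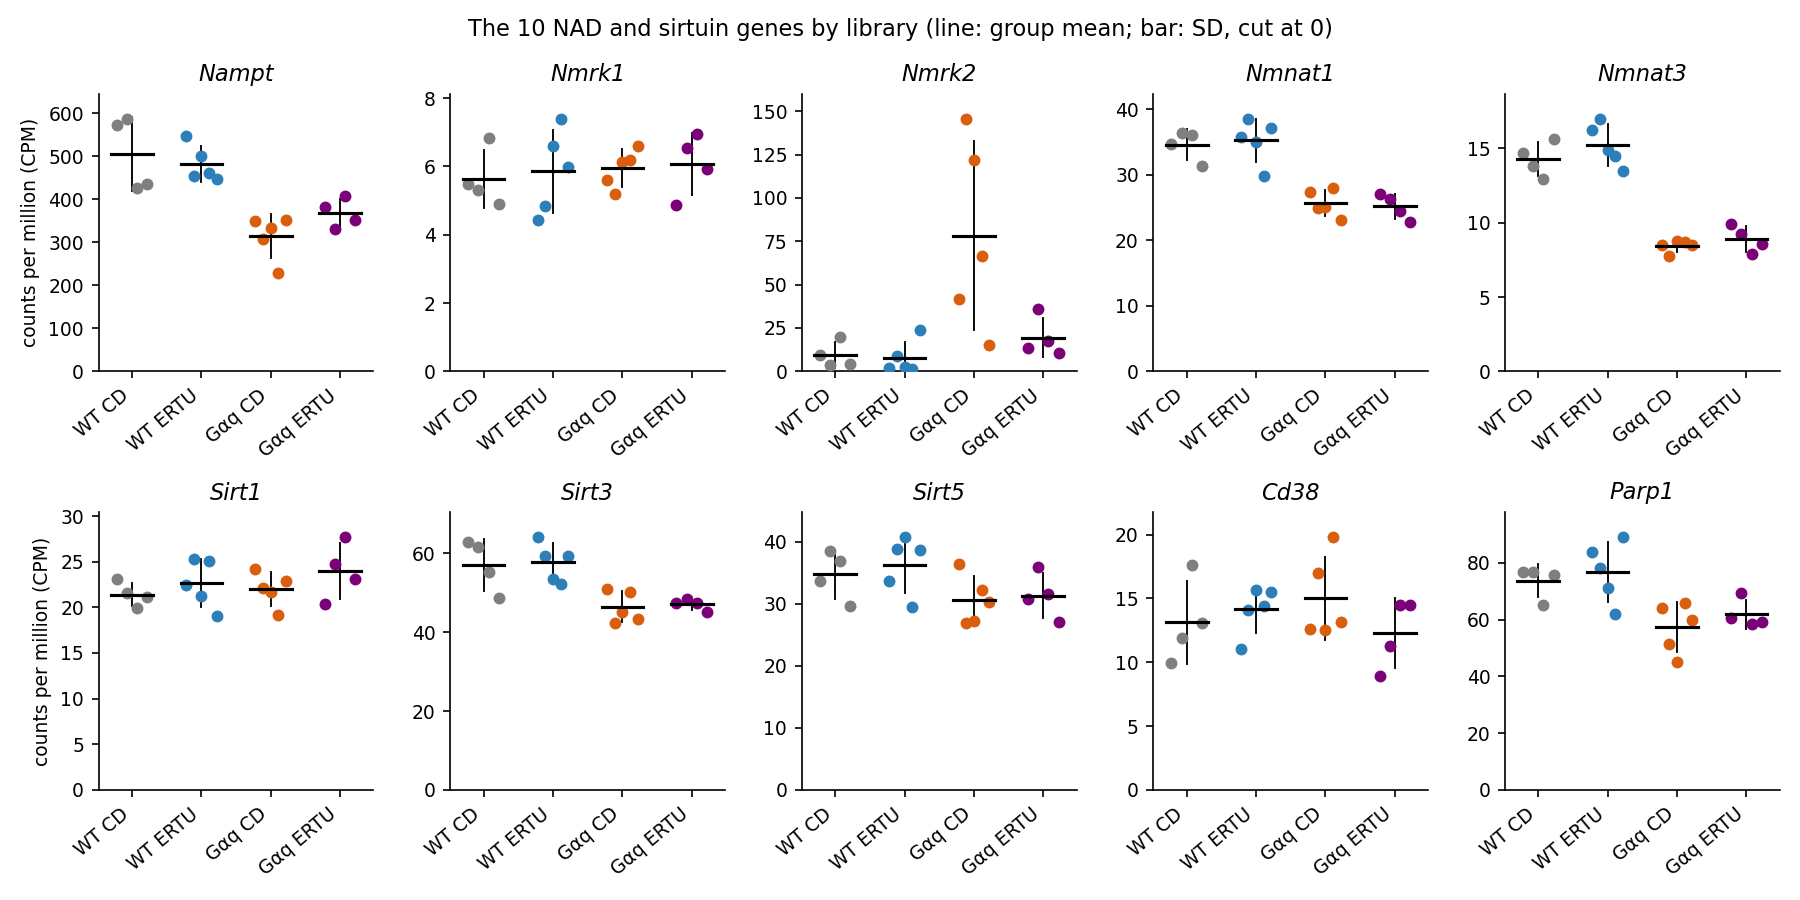
CPM of each of the 10 genes in every library, with 1 panel per gene and a linear axis from 0. Points are libraries, horizontal lines group means and vertical bars SDs, drawn no lower than 0. Nampt, Nmnat1 and Nmnat3 are lower in all 9 Gαq libraries than in any WT library, and Nmrk2 spreads from 15.3 to 146 CPM in Gαq CD.

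Per kilobase of exon, the genes differed widely in level. Nampt was the most abundant in every group, at 99.9 and 95.3 CPM per kb in WT (CD and ERTU) and 62.1 and 72.8 CPM per kb in Gαq. Nmrk1 was the least abundant in every group, at 1.53 to 1.65 CPM per kb. In WT CD the order below Nampt was Parp1 (13.9), Nmnat1 (11.4), Sirt3 (9.56), Sirt5 (5.70), Nmrk2 (5.07), Sirt1 (4.01), Cd38 (3.37), Nmnat3 (2.86) and Nmrk1. Neighbours in the middle of this order overlapped between libraries: Sirt5 ranged from 4.87 to 6.33 CPM per kb and Nmrk2 from 2.03 to 10.6. Nmrk2 held place 6 in WT CD and 7 in WT ERTU, but place 2 in Gαq CD and 3 in Gαq ERTU. The exon length of each gene was counted over all its annotated exons, which approximates the transcript in use.

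Nampt, the rate-limiting enzyme of salvage from nicotinamide (ENSMUSG00000020572, chromosome 12, 32819545 to 32853349), was lower in Gαq hearts. The WT CD libraries 1, 2, 4 and 5 had 573, 587, 425 and 435 CPM, and the Gαq CD libraries 6 to 10 had 350, 308, 334, 228 and 351 CPM. The WT ERTU libraries 11 to 15 had 547, 455, 500, 461 and 446 CPM, and the Gαq ERTU libraries 16, 17, 18 and 20 had 381, 332, 407 and 351 CPM. The groups did not overlap on either diet, and Gαq CD library 9 was the lowest of all. By genotype Nampt fell by 0.54 ± 0.09 on the log2 scale (SE), 31.1% (adjusted p = 0.000321). On control diet it fell by 0.69 ± 0.13 (adjusted p = 0.00201). Under ERTU the difference was -0.39 ± 0.13 (adjusted p = 0.0729), and it passed without Gαq CD library 9, which is not in that contrast but shares its estimate of spread (adjusted p = 0.0366).

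The riboside kinases moved differently. Nmrk2, the kinase form enriched in heart and skeletal muscle (ENSMUSG00000004939, chromosome 10, 81198170 to 81202051), varied more between libraries than any other member. In WT CD libraries 1, 2, 4 and 5 it had 9.63, 3.76, 19.7 and 4.52 CPM. In Gαq CD libraries 6 to 10 it had 42.0, 146, 122, 66.3 and 15.3 CPM. Of these 5, 4 lay above every WT CD library, and library 10 lay below WT CD library 4. In WT ERTU libraries 11 to 15 it had 1.98, 8.75, 2.47, 1.42 and 23.6 CPM. In Gαq ERTU libraries 16, 17, 18 and 20 it had 13.5, 35.9, 17.4 and 10.7 CPM. All of these lay above the WT ERTU libraries other than library 15. The coefficient of variation was 58.5% to 123% within groups, against 3.03% to 24.8% for the other 9 members.

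By genotype Nmrk2 was 4.70-fold higher, a log2 difference of 2.23 ± 0.56 (adjusted p = 0.0072). On control diet it was 8.31-fold higher, 3.06 ± 0.76 on the log2 scale (adjusted p = 0.0157). Under ERTU the difference was 1.36 ± 0.72 (adjusted p = 0.285). Single libraries decided 2 of these calls. The difference on control diet did not pass without WT CD library 1 (adjusted p = 0.0524) or without WT CD library 2 (adjusted p = 0.0621), and the difference under ERTU passed without WT ERTU library 15 (2.40 on the log2 scale, adjusted p = 0.0439). Without WT CD library 4 and WT ERTU library 15 together, which raises the difference by construction since they held the most Nmrk2 of their groups, the log2 differences were 3.06 ± 0.51 by genotype, 3.71 ± 0.71 on control diet and 2.41 ± 0.65 under ERTU, with adjusted p of 0.000262, 0.00349 and 0.0326.

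In 3 of the 4 groups the library with the most Nmrk2 was the one with the least Pdk4, and in Gαq CD it had the second lowest Pdk4. Pdk4 was 1873, 150, 261, 105 and 1818 CPM in Gαq CD libraries 6 to 10, so the 3 with the lowest Pdk4 were the 3 with the highest Nmrk2. In WT CD library 4 carried the lowest Pdk4 and the highest Nmrk2, and WT ERTU library 15 likewise held the lowest Pdk4 of its group, 1677 CPM, and the highest Nmrk2. In Gαq ERTU library 17 had the lowest Pdk4, 1308 CPM, and the highest Nmrk2. Below the top library the order did not hold in WT: WT CD library 1, next in Nmrk2, had the highest Pdk4 of its group, 3976 CPM, and WT ERTU library 12, next in Nmrk2, had the second highest, 4200 CPM. On control diet Pdk4 fell into separate clusters of libraries. No coefficient is given for any group, and the part of Pdk4 in the Nmrk2 result was not tested. Markers of skeletal muscle, where Nmrk2 is also abundant, summed to 0.861 to 7.54 CPM over 6 genes in all libraries. The annotated antisense gene Atcayos shares 270 bp of exon with Nmrk2, and it lay at 49.9 to 65.9 CPM in WT CD and 30.8 to 74.3 CPM in Gαq CD with no difference passing the test by genotype (-0.04 ± 0.19, adjusted p = 0.913).

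Nmrk1, the widely expressed kinase (ENSMUSG00000037847, chromosome 19, 18631950 to 18652428), was 4.44 to 7.39 CPM in WT and 4.87 to 6.95 CPM in Gαq libraries. The genotypes overlapped throughout, and the log2 difference was 0.07 ± 0.11 (adjusted p = 0.730). It rested on 74 to 141 reads per library, the fewest of the 10 genes apart from Nmrk2 in some WT libraries. Per kilobase, the level of Nmrk2 relative to Nmrk1 had a median of 2.67 in WT CD, 0.887 in WT ERTU, 21.3 in Gαq CD and 5.25 in Gαq ERTU. The level of Nampt relative to Nmrk2 had a median of 28.6 in WT CD and 1.26 in Gαq CD, where it ran from 0.775 to 8.40 between libraries. These ratios describe levels of RNA and were not tested.

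Both NMNAT genes, whose enzymes complete NAD, were lower in every Gαq library. Nmnat3, the form placed in mitochondria (ENSMUSG00000032456, chromosome 9, 98287435 to 98420438), had the clearest difference of the 10 genes. It was 14.7, 13.8, 13.0 and 15.6 CPM in the WT CD libraries and 8.48, 7.79, 8.74, 8.70 and 8.53 CPM in the Gαq CD libraries. It was 16.3, 17, 14.9, 14.5 and 13.5 CPM in the WT ERTU libraries and 9.93, 9.26, 7.91 and 8.55 CPM in the Gαq ERTU libraries. The lowest WT value, 13.0, stood clear of the highest Gαq value, 9.93. Nmnat3 fell by 41.1% by genotype, 0.76 ± 0.07 on the log2 scale (adjusted p = 1.09e-07), by 0.76 ± 0.10 on control diet and by 0.77 ± 0.10 under ERTU.

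Nmnat1, the nuclear form (ENSMUSG00000028992, chromosome 4, 149467572 to 149485202), showed the same separation on a smaller scale. It was 34.7, 36.4, 36.0 and 31.3 CPM in WT CD and 27.4, 24.9, 25.1, 27.9 and 23.2 CPM in Gαq CD. It was 35.7, 38.5, 35.0, 29.8 and 37.0 CPM in WT ERTU and 27.1, 26.3, 24.5 and 22.7 CPM in Gαq ERTU. WT ERTU library 14, the lowest WT value, was still above Gαq CD library 9, the highest Gαq value. Nmnat1 fell by 27.2% by genotype, 0.46 ± 0.06 on the log2 scale (adjusted p = 1.93e-05), by 0.43 ± 0.09 on control diet and by 0.49 ± 0.09 under ERTU. Per kilobase, Nmnat1 exceeded Nmnat3 by a median of 4.11 times in WT CD and 5.27 times in Gαq CD.

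**Figure D2:**
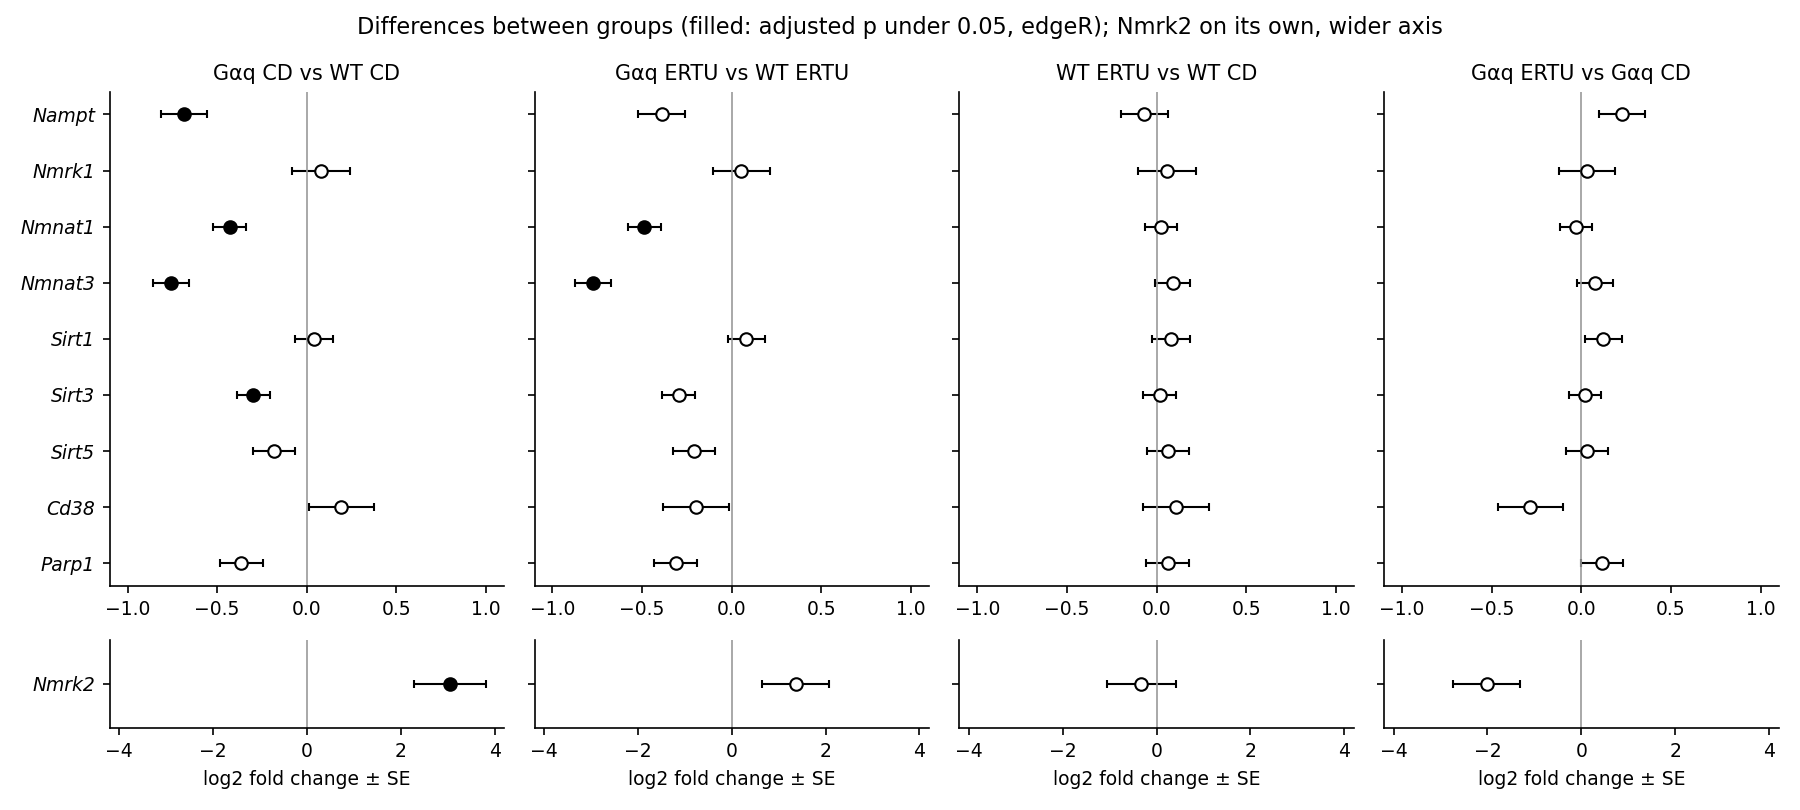
Log2 fold changes with SE of the 10 genes in the 4 comparisons of groups, on a common axis for 9 genes and a wider axis for Nmrk2. Filled points passed the edgeR test at an adjusted p of 0.05. Nmnat1 and Nmnat3 are filled in both comparisons of genotypes, and no point is filled in either comparison of diets.

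Of the 3 sirtuins listed, 1 fell. Sirt3, the main deacetylase of the mitochondrial matrix (ENSMUSG00000025486, chromosome 7, 140863666 to 140882309), was 62.9, 61.6, 55.2 and 48.6 CPM in WT CD and 51.0, 42.4, 45.1, 50.2 and 43.4 CPM in Gαq CD. It was 64.1, 59.5, 53.6, 52.3 and 59.4 CPM in WT ERTU and 47.5, 48.4, 47.3 and 45.0 CPM in Gαq ERTU. The groups overlapped on control diet, through WT CD library 5, and did not overlap under ERTU. Sirt3 fell by 18.6% by genotype, 0.30 ± 0.06 on the log2 scale (adjusted p = 0.00167). The differences on each diet lay on either side of the threshold, -0.30 ± 0.09 on control diet (adjusted p = 0.0478) and -0.30 ± 0.09 under ERTU (adjusted p = 0.0512). The call on control diet did not hold in 13 of the 18 fits that left out 1 library, in which adjusted p reached 0.180 without WT CD library 1, nor without WT CD library 4 and WT ERTU library 15 together (adjusted p = 0.0709). The difference under ERTU passed without WT CD library 5 (adjusted p = 0.0325) or WT ERTU library 14 (0.0314).

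Sirt3 shares exon sequence with 2 genes of the opposite strand, Ric8a (418 bp) and Psmd13 (342 bp). The library kit is not named as strand-specific, while the study's methods describe the counted pairs as same strand. Whether reads of these genes enter the Sirt3 counts was not tested. Psmd13 was 76.6 to 91.1 CPM in WT and 78.4 to 116 CPM in Gαq libraries, and Ric8a was 31.3 to 41.1 and 30.8 to 44.5 CPM. Neither passed by genotype, with log2 differences of 0.14 ± 0.06 and 0.10 ± 0.07.

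Sirt1, the nuclear deacetylase (ENSMUSG00000020063, chromosome 10, 63319005 to 63381704), was 19.1 to 25.3 CPM in WT and 19.1 to 27.7 CPM in Gαq libraries, a log2 difference of 0.06 ± 0.07 (adjusted p = 0.600). Its antisense neighbour Gm16145 had no reads in any library. Sirt5, the matrix enzyme that removes succinyl groups (ENSMUSG00000054021, chromosome 13, 43365496 to 43395203), was 29.5 to 40.7 CPM in WT and 27.0 to 36.3 CPM in Gαq libraries. Its log2 difference was -0.20 ± 0.08 (adjusted p = 0.0923) and passed without Gαq CD library 6 (adjusted p = 0.0445), without WT CD library 5 (0.0497) or without WT ERTU library 14 (0.0407). With limma voom it was -0.25 ± 0.08 and passed (adjusted p = 0.0221).

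Parp1, the polymerase that spends NAD on poly(ADP-ribose) at DNA breaks (ENSMUSG00000026496, chromosome 1, 180568924 to 180601254), was lower by genotype. It was 76.9, 76.7, 65.0 and 75.8 CPM in WT CD and 63.9, 51.2, 45.1, 65.9 and 59.9 CPM in Gαq CD. It was 84.0, 78.0, 71.3, 61.9 and 89.0 CPM in WT ERTU and 60.6, 69.5, 58.4 and 59.1 CPM in Gαq ERTU. The groups overlapped by 1 library on each diet, Gαq CD library 9 and Gαq ERTU library 17 lying above the lowest WT library. Parp1 fell by 20.9% by genotype, 0.34 ± 0.08 on the log2 scale (adjusted p = 0.00506), while the differences of -0.36 ± 0.12 on control diet and -0.31 ± 0.12 under ERTU missed the threshold (adjusted p = 0.0641 and 0.119). Both passed without WT ERTU library 14 (adjusted p = 0.0439 and 0.0412), and that on control diet also without Gαq CD library 6 (0.0488) or 9 (0.0460) and without WT CD library 4 and WT ERTU library 15 together (0.0444).

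Cd38, an NAD hydrolase of the cell surface found mainly on immune and endothelial cells (ENSMUSG00000029084, chromosome 5, 43868553 to 43912375), was 9.92 to 17.6 CPM in WT and 8.90 to 19.8 CPM in Gαq libraries. The log2 difference by genotype was -0.0029 ± 0.13 (adjusted p = 0.991), and its sign changed between fits. On control diet the difference was 0.19 ± 0.18 and under ERTU it was -0.20 ± 0.18.

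No member passed the test for ERTU, which does not show that ERTU left the members unchanged. In edgeR, DESeq2 and limma voom, 0 of 10 passed for diet with genotype in the model, for ERTU within either genotype or for the difference between the 2 effects. Among all genes 0.00615%, a single gene, passed for ERTU in Gαq and 0% for each of the others in edgeR. At an unadjusted p under 0.05 there was 1 member for diet, 0 in WT, 1 in Gαq and 0 for the difference, and the member was Nmrk2 in both cases. Of all tested genes 7.70%, 2.24%, 7.62% and 1.92% reached that level.

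Nmrk2 was lower in Gαq ERTU than in Gαq CD by 2.02 ± 0.71 on the log2 scale, a 4.04-fold difference (adjusted p = 0.653). The 2 groups overlapped, since Gαq CD library 10 had 15.3 CPM and Gαq ERTU library 17 had 35.9 CPM. Taken by itself, the difference of mean log2 CPM had an exact permutation p of 0.0476, where 0.0159 is the smallest that 4 against 5 libraries allow. Such tests were run for all 10 members in the 4 comparisons of groups, and this p is not adjusted for their number. No other permutation p for ERTU was under 0.05, the next lowest being 0.111 for Nampt in Gαq. In WT the Nmrk2 difference was -0.32 ± 0.74, and the difference between the 2 effects was -1.69 ± 1.02 (adjusted p = 1.00). The comparison shares the Gαq CD libraries with that of Gαq CD against WT CD. Gnaq itself was 7473 ± 3818 CPM in Gαq CD and 3216 ± 1371 CPM in Gαq ERTU (SD), a log2 difference of -1.22 ± 0.52 (adjusted p = 0.653).

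Nampt was 314 ± 51.3 CPM in Gαq CD and 368 ± 33.1 CPM in Gαq ERTU, a log2 difference of 0.23 ± 0.13 (adjusted p = 0.656). Gαq ERTU library 17 lay within the range of Gαq CD, library 20 level with its top at 351 CPM, and libraries 16 and 18 above it. In WT the Nampt difference was -0.07 ± 0.13. The other 8 members differed by -0.28 (Cd38) to 0.12 (Sirt1) on the log2 scale in Gαq, with SEs of 0.09 to 0.18, and by 0.02 (Sirt3) to 0.11 (Cd38) in WT. Nmnat3 was 8.45 ± 0.384 CPM in Gαq CD and 8.91 ± 0.875 CPM in Gαq ERTU, against 14.3 ± 1.14 CPM in WT CD, and every Gαq ERTU library lay below every WT library.

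Over the 9 Gαq libraries of both diets, 2 of the 10 members passed a test of relation with the level of Gnaq by Pearson's r. Neither passed after adjustment by Spearman's rho or within diet groups. The relation was not computed for the other tested genes, so this count does not set the members apart. Nmrk2 was higher where Gnaq was higher, with Pearson's r of 0.888 between log2 CPM values (exact permutation p = 0.00311, adjusted over the 10 members p = 0.0214) and Spearman's rho of 0.800 (exact permutation p = 0.0138, adjusted p = 0.0691). Without the 2 libraries farthest from the median of Gnaq, Gαq CD library 10 and Gαq ERTU library 18, r was 0.904. As deviations from the mean of each diet group r was 0.845 (exact permutation p = 0.0191, adjusted p = 0.191). Nampt was lower where Gnaq was higher, with r of -0.754 (exact permutation p = 0.00428, adjusted p = 0.0214) and rho of -0.850 (exact permutation p = 0.00607, adjusted p = 0.0607). Without those 2 libraries r was -0.773, and within diet groups it was -0.655 (exact permutation p = 0.172, adjusted p = 0.574). The other 8 members gave r between -0.424 (Sirt1) and 0.535 (Nmnat1) with no p under 0.05. Nmnat3, which differed most clearly between genotypes, had r of -0.170. Gαq CD libraries 7, 8 and 9, with the highest Gnaq of their group (9701, 8045 and 11672 CPM), also had the lowest Pdk4. Gαq ERTU library 17 had the highest Gnaq (5207 CPM) and the lowest Pdk4 of its group. Gαq ERTU library 20, next in Gnaq (3031 CPM), had the highest Pdk4 (2471 CPM). The relations with Gnaq rest on libraries that also carry the pattern of Nmrk2 with Pdk4, and their separate parts were not tested.

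**Figure D3:**
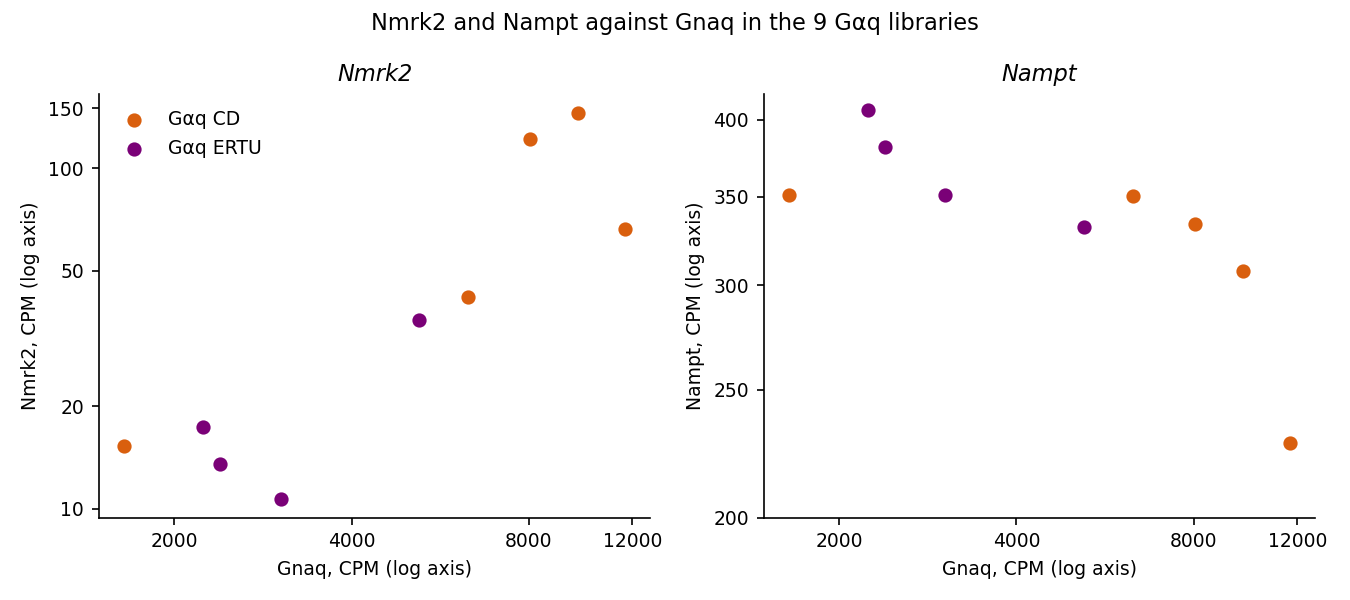
Nmrk2 (left) and Nampt (right) against Gnaq in the 9 Gαq libraries, all in CPM on log axes, with Gαq CD and Gαq ERTU in separate colours. Nmrk2 is between 10.7 and 17.4 CPM in the 4 libraries with the least Gnaq and between 35.9 and 146 CPM in the 5 with the most.

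Beyond the members, 37 further genes of NAD metabolism were listed, and 29 had enough reads to test. By genotype 9 of the 29 passed, 3 higher and 6 lower, against 19.6% of all genes, with a median log2 difference of -0.08. On control diet 5 passed, against 8.1% of all genes, and under ERTU 6 passed, against 8.17%. For the comparisons of ERTU 0 of 29 passed in edgeR, DESeq2 and limma voom, with 2 at an unadjusted p under 0.05 for diet, 0 in WT, 3 in Gαq and 0 for the difference of effects, where 7.70%, 2.24%, 7.62% and 1.92% of all genes reached that level.

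The enzymes that phosphorylate, exchange, repair or carry NAD held most of these calls, with 5 of 7 lower and 0 higher. Nadk2, the mitochondrial NAD kinase that makes NADP, was 79.5 to 119 CPM in WT and 41.0 to 62.4 CPM in Gαq libraries and fell by 0.93 ± 0.08 on the log2 scale (adjusted p = 1.16e-07). Nnt, which couples NADH to NADPH at the inner mitochondrial membrane, was 5.36 to 9.40 CPM in WT and 2.20 to 4.27 CPM in Gαq libraries and fell by 0.96 ± 0.14 (adjusted p = 3.78e-05). Neither Nadk2 nor Nnt overlapped between genotypes. The Nnt values are those of ENSMUSG00000025453, the one with more reads of 2 identifiers that share the symbol, and the other is not described. Nudt12, which cleaves NADH, fell by 0.44 ± 0.08, Naxe, which repairs hydrated NADH, fell by 0.33 ± 0.07, and Slc25a51, which brings NAD into mitochondria, fell by 0.18 ± 0.05. Slc25a51 did not pass without WT CD library 4 and WT ERTU library 15 (adjusted p = 0.0531). Nadk, the cytosolic kinase, gave 0.08 ± 0.06 and did not pass.

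In the salvage routes other than those of the members, 2 of 4 genes passed in opposite directions. Naprt, which starts NAD synthesis from nicotinic acid, was 16.99 to 23.8 CPM in WT and 9.73 to 16.8 CPM in Gαq libraries and fell by 0.76 ± 0.09 (adjusted p = 4.97e-06). Nt5e (CD73), a surface enzyme that removes phosphate from nucleotides, was 12.6 to 28.3 CPM in WT and 33.3 to 47.6 CPM in Gαq libraries, 2.04-fold higher (log2 difference of 1.03 ± 0.12, adjusted p = 3.97e-06). Nt5e is also a gene of fibroblasts and endothelium, and of the marker lists given above all 6 fibroblast genes rose by genotype while 2 of 5 endothelial genes fell. Their part in the Nt5e result was not tested. Nadsyn1 and Pnp did not pass, at -0.09 ± 0.09 and -0.19 ± 0.11.

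No other sirtuin passed in edgeR, with Sirt4 at -0.25 ± 0.09 (adjusted p = 0.0514) and Sirt2, Sirt6 and Sirt7 between -0.06 and 0.07. Sirt4 was the 1 of these 4 with an unadjusted p under 0.05. Of 8 other genes of the poly(ADP-ribose) polymerase family and its hydrolase, Parp9 rose by 0.24 ± 0.07 (adjusted p = 0.0222) but missed the threshold when WT CD library 1 (0.0558) or library 17 of Gαq ERTU (0.0528) was left out. Bst1, a relative of Cd38, was at 0.369 to 2.84 CPM across libraries and 2.07-fold higher by genotype (adjusted p = 0.0246), a call lost without WT CD library 1 (0.0508), Gαq CD library 8 (0.0617) or Gαq ERTU library 20 (0.0552), and without WT CD library 4 and WT ERTU library 15 together (0.0629). Synthesis from tryptophan was barely represented. Of its 9 listed genes 3 were tested, Ido1, Afmid and Kmo, and 0 passed in edgeR in any comparison. None had an unadjusted p under 0.05 between genotypes. Ido1, at 0.113 to 1.16 CPM, had one for diet (log2 difference of -0.86 ± 0.35, adjusted p = 0.639) and for ERTU in Gαq (-1.25 ± 0.52, adjusted p = 0.653). Tdo2, Ido2, Kynu, Haao, Qprt and Acmsd, along with Nmnat2 and Sarm1 of other groups, did not exceed 0.780 CPM in any library.

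**Figure D4:**
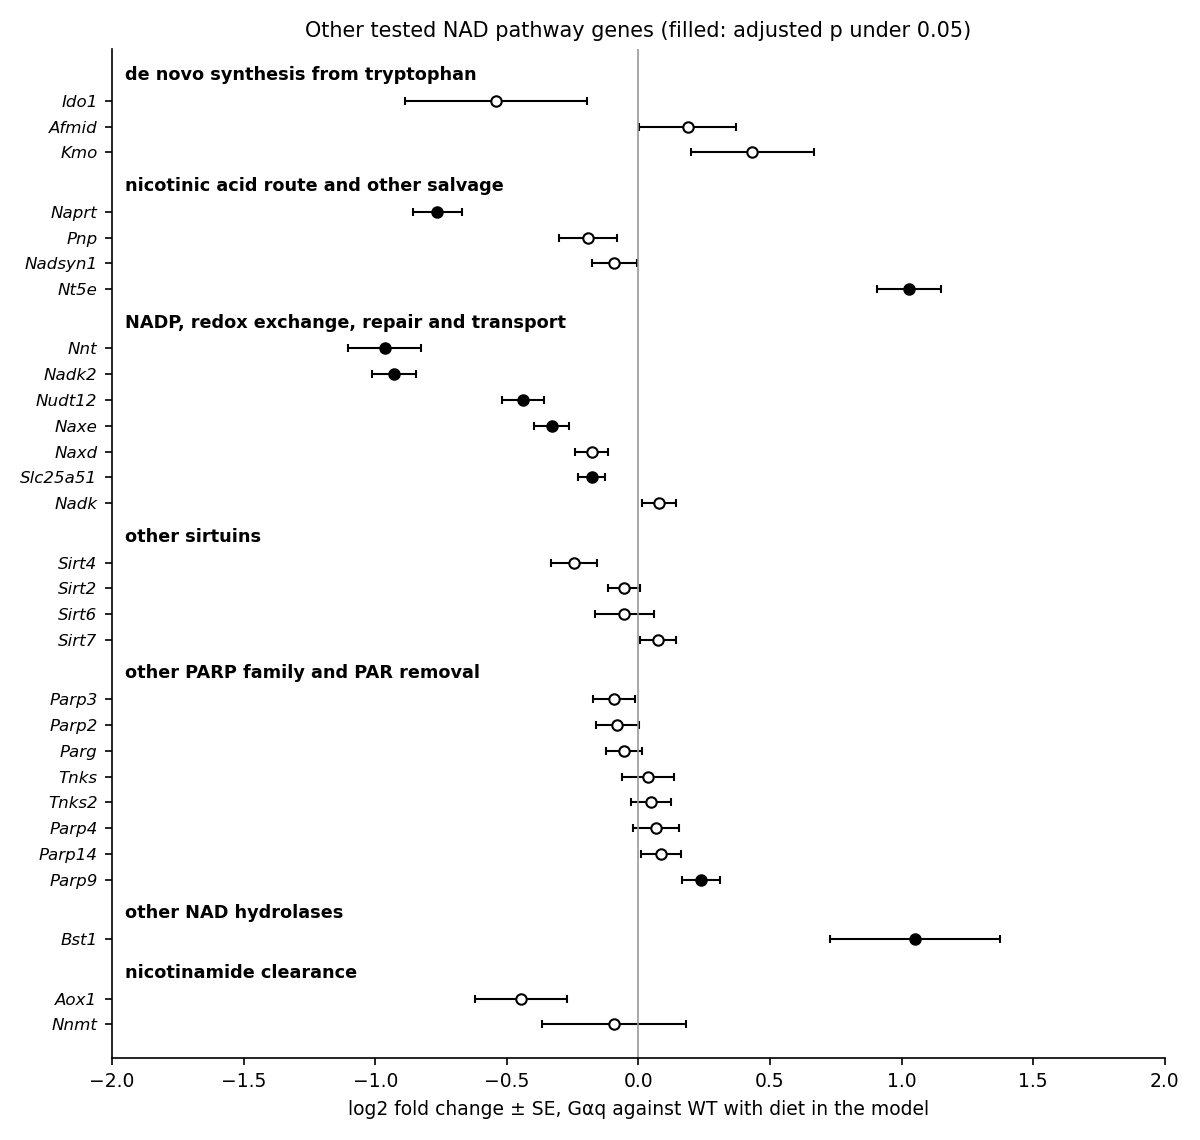
Log2 fold changes with SE of the 29 other tested NAD pathway genes, Gαq against WT with diet in the model, grouped by role. Filled points passed at an adjusted p of 0.05. Nnt and Nadk2 lie lowest, and Bst1 and Nt5e highest.

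The genes whose levels followed Nmnat3 most closely over the 18 libraries were Plbd1 (r = 0.969), Qdpr (0.951), Hibadh (0.950), Dglucy (0.950) and Cpt2 (0.947), from log2 CPM. These points share the 2 genotypes, and the genotype difference sets most of each value. As deviations from the 4 group means the closest were Tut1 (0.807), Terf2 (0.796), Psenen (0.796), Stat6 (0.790) and Cers2 (0.789). No gene was in both sets. Between members, the same deviations gave r of 0.758 for Nmnat1 with Sirt5, 0.718 for Nmnat1 with Sirt3, and -0.666 for Nampt with Cd38. The 18 libraries share their depth and scaling. These pairs were picked as the largest r in size among all pairs of members and were not tested. Other pairs lay as near 0 as 0.003 (Nampt with Nmnat3).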

How the data were processed

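Poly(A) RNA of 18 left ventricles was sequenced in pairs. Per the labels and the study's methods, the authors aligned reads with STAR 2.6.0c to mm10. They counted uniquely aligned proper pairs, described as same strand, per Ensembl gene with featureCounts of Subread 1.6.2. The deposited values used were these raw counts, and log2-like variance-stabilized values that the authors made with DESeq2 (1.23.10 per the labels) served as an alternative. Of 55450 gene identifiers, 55190 matched GENCODE M21 names (99.5%). Column numbers run over the whole series and were tied to groups by name only.

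Counts were scaled by trimmed means and filtered on the 4 groups with filterByExpr, which kept 16270 genes and left out 0.0906% of reads. edgeR 4.0.16 in R 4.3.3 fitted genotype plus diet for the 2 main effects and 1 mean per group for the other 5 comparisons, with Benjamini-Hochberg adjustment over all tested genes at 0.05. All adjusted p-values of gene differences are from edgeR unless another tool is named. The SE of an edgeR difference was worked back from the test, as the absolute log2 difference divided by the square root of the F statistic. CPM values carry the same scaling, and log2 CPM a prior count of 2. Single-gene differences were also tested by 2-sided exact permutation of libraries, and relations with Gnaq over all 362880 orders of the 9 Gαq libraries. Relations within diet groups were tested over the 2880 orders that keep each library in its group. Libraries had totals of 15383566 to 20908363 reads, and members had from 27 reads (Nmrk2) to 10301 reads (Nampt) in a library. How far depth and the number of libraries each set the precision was not tested. The scripts were tested on simulated data for the comparison of Gαq CD with WT CD. There 36.5% of genes changed 1.5-fold and 66% of genes changed 2-fold were called. Replicates are separate samples in the labels, and p-values measure the spread between them.

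Alternatives were median-of-ratios size factors, DESeq2 1.42.0, voom of limma 3.58.1 with library quality weights, the variance-stabilized values, other filters, 1 mean per group for the main effects, only the groups compared, and each library left out. Named genes were the 10 members, Gnaq, the other NAD pathway genes that passed in any comparison, and the 5 genes most like the member with the largest genotype statistic by each of 2 measures. Further untested or unpassed pathway genes, Pdk4, Arntl and overlapping genes were named after their values were seen. The members and gene lists were chosen with earlier results of these data known. Sequences are from RefSeq (GRCm38.p6), in which all 10 members had a promoter entry, and the count table, the annotation and the sequences use the same mouse assembly. Where 2 identifiers shared the symbol Nnt, the one with more reads was used.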

Additional observations from a re-analysis of the deposited data

Results flagged for a closer look

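In 2 of 40 groups of values (10 genes in 4 groups) 1 library lay far from the others of its group by Dixon's criterion, where chance gives 2. Parp1 in WT CD library 4 was 64.952 CPM, low against 75.833 to 76.874 CPM in the other 3 libraries. Nmnat3 in Gαq CD library 7 was 7.791 CPM, low against 8.484 to 8.739 CPM in the other 4 libraries. Before scaling, its 161 reads lay within the 138 to 191 reads of those 4 libraries. Both flagged libraries were also among those with the least Pdk4 of their group, and a relation was not tested.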

How the results depend on the processing

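No paired analysis was possible because the column numbers run over the whole series and are not shared between groups. The number of members that passed was unchanged or within 1.5 times in all other fits, but under ERTU it was 5 with limma voom and 4 with DESeq2 against 2. With each of 18 libraries left out it was 3 to 6 on control diet (3 without WT CD library 1 or 2) and 2 to 4 under ERTU (4 without WT ERTU library 14). Of the other pathway genes, 8 passed on control diet with limma voom against 5. The share of all tested genes that passed in each of these fits is not given here. Without it, these counts do not set the members or the other pathway genes apart. The call of Sirt3 on control diet was lost in 5 of 8 alternatives (highest adjusted p = 0.136), and Sirt3 passed under ERTU in 5 of 8, with DESeq2 (0.0232), voom (0.0110), median-of-ratios factors (0.0499), variance-stabilized values (0.0497) and the filter at a mean CPM of 1 (0.0491). Parp1 passed on control diet with DESeq2 (0.0444) and voom (0.0409) and under ERTU with voom (0.0179), Nampt under ERTU with DESeq2 (0.0361) and with only the groups compared (0.0348), and Sirt5 with voom by genotype (0.0221) and under ERTU (0.0477). The relation of Nampt with Gnaq within diet groups had r of -0.6551.

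Differences near 0 changed sign. Cd38 by genotype was 0.0031 with no filter, 0.0009 with a filter at a mean CPM of 1, 0.0300 with voom and 0.0913 without WT CD library 4 and WT ERTU library 15. Nmnat1 for diet was 0.0013 with median-of-ratios factors, 0.0007 with variance-stabilized values and 0.0019 with DESeq2. The interaction of Sirt3 was -0.0031, -0.0038 and -0.0017 with these and -0.0004 with no filter. With voom, Sirt3 was -0.0055 for diet and -0.0207 for ERTU in WT, Sirt5 -0.0119 for ERTU in Gαq, and the interaction of Nmrk1 was 0.0887. Without the 2 libraries named, ERTU in WT gave -0.0079 for Sirt3 and -0.0511 for Parp1. The causes were not tested.

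With 1 library left out, these log2 differences spanned 0: Cd38 by genotype -0.0725 to 0.0698 and for ERTU in WT -0.0056 to 0.2862, Nmrk1 under ERTU -0.0312 to 0.1525, for diet -0.0027 to 0.0949, for ERTU in WT -0.0422 to 0.1686, in Gαq -0.0381 to 0.1215 and for the interaction -0.1337 to 0.0739. In WT, ERTU gave -0.1389 to 0.0123 for Nampt, -1.3653 to 0.3352 for Nmrk2, -0.0194 to 0.0806 for Nmnat1, -0.0522 to 0.0673 for Sirt3 and -0.0052 to 0.1287 for Sirt5. In Gαq it gave -0.0676 to 0.0158 for Nmnat1, -0.0115 to 0.0553 for Sirt3 and -0.0378 to 0.1025 for Sirt5. For diet, Nmnat1 ran from -0.0254 to 0.0226 and Sirt3 from -0.0134 to 0.0415. The interaction ran from -0.0699 to 0.0379 for Nmnat3, -0.0221 to 0.1105 for Parp1, -0.0347 to 0.1100 for Sirt1, -0.0476 to 0.0719 for Sirt3 and -0.1000 to 0.0403 for Sirt5.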
